A study of Mus musculus with 9 samples.

Results

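Genes that drive the cell cycle and copy DNA were followed in RNA of pancreatic islets from male mice. They were chosen by name, with no use of their values, as the rows of the islet count table whose symbol is one of 60 listed cell cycle genes, and all 60 were found among the 23329 symbols of the table. By textbook role they fall into 14 G1 genes, 23 S phase genes and 23 G2/M genes. The islet RNA came as 5 libraries titled as mutants, whose genotype label is Pdx1A4, and 4 libraries titled as controls, whose genotype label is Pdx1+/-. Pdx1 is a homeodomain transcription factor without which the pancreas does not form and beta cells lose their function. The labels leave Pdx1A4 unexplained and give no treatment or age for these islets. They also do not name the mouse behind each library, so a p-value here weighs a difference against the spread between libraries, which may be technical.

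A cell leaves G1 when D-type cyclins with Cdk4 or Cdk6, and then E-type cyclins with Cdk2, phosphorylate the retinoblastoma protein and free E2F transcription factors, while Cdkn1b and the Cdkn2 proteins hold these kinases back. E2F factors switch on the genes that load and fire the replicative helicase, make deoxynucleotides and copy DNA. Later, complexes of MYB, FOXM1 and DREAM subunits acting through a promoter element called the CHR (cell cycle genes homology region) control the genes of mitosis. Adult islet endocrine cells and acinar cells divide rarely, and in mice Ccnd2 and Cdk4 are needed for the postnatal growth of beta cells.

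Libraries held 7186462 to 9163253 counts in mutants and 6092010 to 7375376 in controls, and the 60 genes together took 7922 to 11593 and 7466 to 9981 of them. Pdx1, on chromosome 5, had 15.6, 4.18, 7.13, 17.9 and 19.9 CPM in mutants 1 to 5, against 36.0, 32.1, 23.8 and 26.2 CPM in controls 1 to 4. CPM are counts scaled to a common library size, after TMM correction. Against the islet label, 7 islet hormone genes took 7.99%, 0.0691%, 1.21%, 4.70% and 7.27% of counts in mutants 1 to 5, against 17.0% to 21.1% in controls. A list of 17 acinar genes took 7.67%, 15.9%, 14.7%, 13.3% and 7.87% in mutants 1 to 5, against 1.47% to 2.33% in controls. The acinar list took a larger share than the hormone genes in mutants 2, 3, 4 and 5, so by these markers the islet label does not describe those libraries, mutant 2 least of all, as it does the controls. Mutant 1, at 7.99% and 7.67%, was close to mutant 5 and outside the control range in both shares. Mutants 2 and 3 stand apart from the other 7 libraries by their hormone transcripts, and each list count is also given without them. In bulk RNA, fewer cells of a type and less RNA per cell cannot be told apart.

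The S phase and G2/M genes that passed the test, 13 of 21 and 10 of 20, were all higher in mutants, and of 12 tested G1 genes 3 were higher and 2 lower. Over all tested genes 20.6% were called higher and 11.8% lower. The G1 shares, 25% and 16.7% of 12 genes, lie near these. The summed G2/M level was far higher in mutants 2 and 3 than in the other mutants. The summed level of the 23 S phase genes was 329.0, 616, 545, 360.3 and 362 CPM in mutants 1 to 5, against 194, 232, 286 and 264 CPM in controls 1 to 4. The groups did not overlap, and mutants 2 and 3 were the highest. For the 23 G2/M genes the sum was 137, 457, 408, 119.5 and 136 CPM in mutants 1 to 5, against 85.6, 110.5, 113 and 107 CPM in controls. Again the groups did not overlap, but mutant 4 lay close to the highest control. The 14 G1 genes summed to 869.6, 489.9, 556, 679 and 858 CPM in mutants 1 to 5, against 847, 749.8, 769.9 and 739.7 CPM in controls. Here the groups overlapped, and mutants 2 and 3 were the lowest of the 9 libraries. This sum is led by Ccnd2, at 195 and 258 CPM in mutants 2 and 3 and 436 to 553 CPM in controls. The mean log2 CPM of the tested G1 genes, which weighs each gene alike, was 3.809 and 3.865 in mutants 2 and 3. In controls it was 3.616 to 3.862, so by this measure mutants 2 and 3 were not the lowest. The ratio of the G2/M sum to the S sum was 0.415, 0.741, 0.749, 0.332 and 0.375 in mutants 1 to 5, against 0.394 to 0.476 in controls, so it was above the control range in mutants 2 and 3 and below it in mutants 4 and 5.

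**Figure D1:**
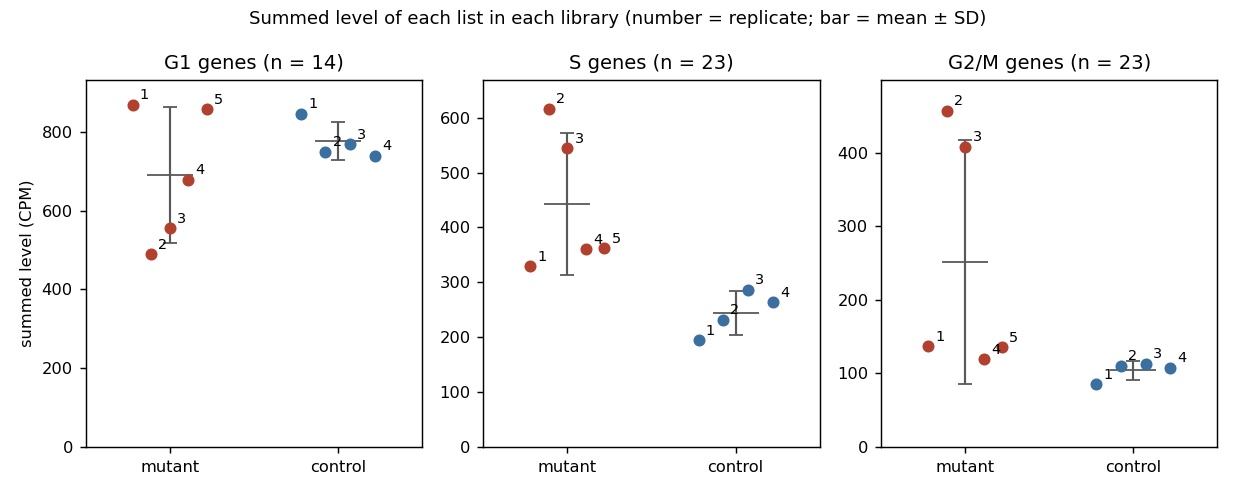
Summed level (CPM, linear axis from 0) of the G1, S and G2/M genes in each library, mutants on the left and controls on the right of each panel; numbers are replicates and bars are the mean ± SD. The S sum is 329.0 CPM or more in mutants and 286 CPM or less in controls, and the G2/M sum of mutants 2 and 3 (457 and 408 CPM) is far above that of the other 7 libraries.

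Of the 60 members, 53 passed the filter on low counts, which asks for at least 1.36 CPM in 4 libraries. Controls alone would have carried 35 of these past it, a further 16 needed mutant libraries as well, and Cdk6 and Uhrf1 passed through mutants only. The other 7 (Cdkn2a, Cdkn2c, Orc1, Pole, Cdc25c, Ttk and Foxm1) are given as counts. Over the whole table, 20.6% of 12402 tested genes were called higher in mutants and 11.8% lower (edgeR quasi-likelihood test, Benjamini-Hochberg adjusted p under 0.05), with a median log2 fold change of 0.04. Among tested members, 13 of 21 S phase genes were called higher and 0 lower, with a median log2 fold change of 1.24. In G2/M, 10 of 20 were called higher and 0 lower, with a median of 2.08, and in G1, 3 of 12 were called higher and 2 lower, with a median of -0.01. At an unadjusted p under 0.05 there were 17, 16 and 5 genes in the S, G2/M and G1 lists, against 46.5% of all tested genes. With no filter all 60 members entered, and the counts were 12 higher of 23 S phase genes, 10 of 23 G2/M genes and 3 of 14 G1 genes, with 2 G1 genes lower, against 12% of all genes higher and 9.16% lower. Relative log expression scaling moved the median of all genes to -0.06, and gave 11 S, 10 G2/M and 3 G1 genes higher, with 2 G1 genes lower, against 17.4% of all genes higher and 16.2% lower.

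**Figure D2:**
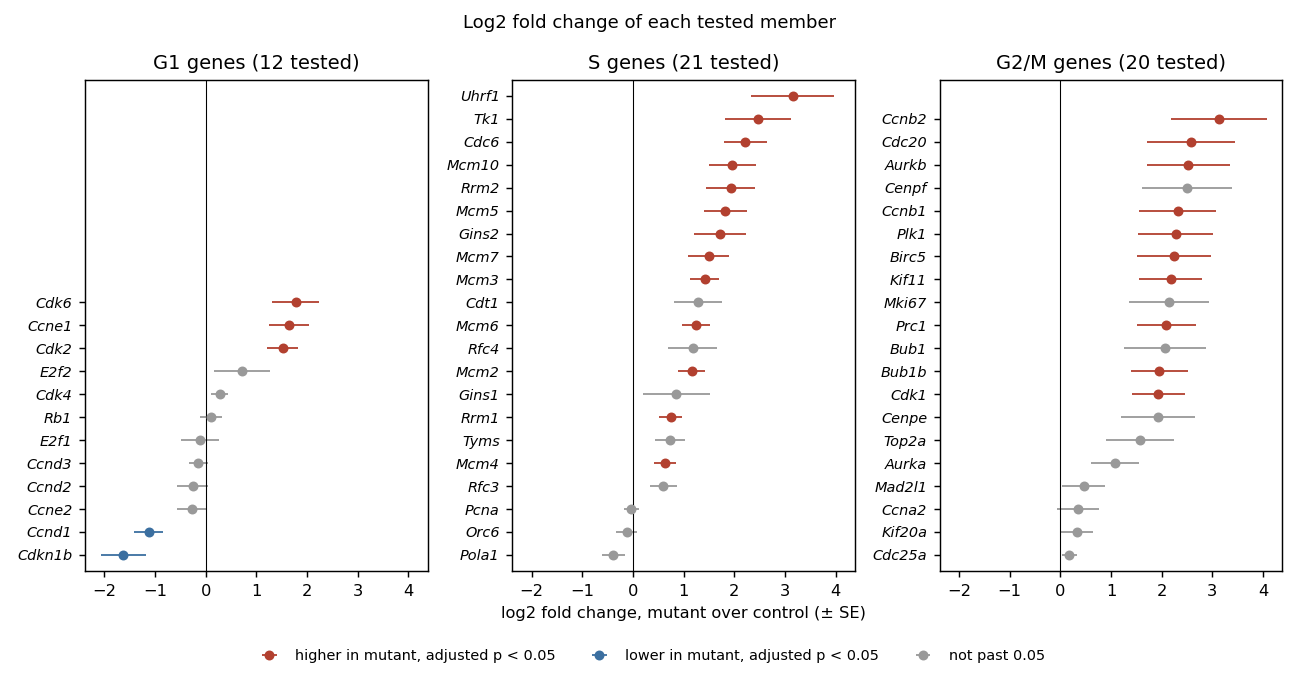
Log2 fold change of mutant over control with its standard error for each tested member (linear axis), ordered within each list; red marks genes called higher, blue genes called lower and grey genes not past an adjusted p of 0.05. The S and G2/M panels hold called genes to the right of 0, up to 3.15 (Uhrf1) and 3.13 (Ccnb2), and the G1 panel holds them on both sides, from -1.62 (Cdkn1b) to 1.77 (Cdk6).

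Promoter letters were read for the members of each list, which was made by textbook role, whether or not a member was called. RefSeq windows of GRCm38.p6, reaching from 250 bases before to 50 bases after the annotated start, were found for 47 of the 60 members and for 27025 genes in all. Motifs were searched on both strands: the E2F core TTCCCGC or TTGGCGC, the CHR as TTTGAA or TTTAAA, and CCAAT, the box bound by NF-Y. The reverse of TTGGCGC ends in CCAA and can share letters with CCAAT. An E2F core was present in 57.9% of the 19 S phase genes with a window, 22.2% of 18 G2/M genes and 40.0% of 10 G1 genes, against 7.79% of all genes. A CHR and a CCAAT in the same window were found in 77.8% of the G2/M genes, 21.1% of the S phase genes and 2 of the 10 G1 genes, against 12.2% of all genes. A match is a description, not a binding site.

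The 120 bases directly before the start are shown for called members, in order of p within each list, whose stretch lies outside the RefSeq gene and holds the motifs of the list. Capitals mark the motifs. For the G1 gene Cdk2 and the S phase genes Mcm6, Uhrf1 and Rrm1 an E2F core was asked for. The stretches are chr10:128705052-128705171 (minus strand) for Cdk2, chr1:128359706-128359825 (minus strand) for Mcm6, chr17:56303217-56303336 (plus strand) for Uhrf1 and chr7:102441575-102441694 (plus strand) for Rrm1.
Cdk2: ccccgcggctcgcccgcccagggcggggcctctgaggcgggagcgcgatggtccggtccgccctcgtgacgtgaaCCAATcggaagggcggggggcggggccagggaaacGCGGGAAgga
Mcm6: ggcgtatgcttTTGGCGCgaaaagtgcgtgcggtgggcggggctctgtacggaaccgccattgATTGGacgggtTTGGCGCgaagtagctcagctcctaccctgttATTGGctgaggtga
Uhrf1: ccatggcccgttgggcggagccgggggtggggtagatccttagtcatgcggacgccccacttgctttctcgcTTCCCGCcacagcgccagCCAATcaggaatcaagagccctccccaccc
Rrm1: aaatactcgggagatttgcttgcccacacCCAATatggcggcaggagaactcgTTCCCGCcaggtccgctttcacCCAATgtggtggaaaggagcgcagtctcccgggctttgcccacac

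For the G2/M genes Cdk1, Kif11, Ccnb1 and Plk1 a CHR and a CCAAT were asked for. Their stretches are chr10:69352913-69353032 (minus strand), chr19:37376262-37376381 (plus strand), chr13:100786487-100786606 (minus strand) and chr7:122159315-122159434 (plus strand). In Ccnb1 the first run of capitals joins an E2F core on the reverse strand to a CCAAT.
Cdk1: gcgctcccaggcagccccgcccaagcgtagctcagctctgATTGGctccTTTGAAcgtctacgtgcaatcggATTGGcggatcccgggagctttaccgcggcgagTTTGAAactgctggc
Kif11: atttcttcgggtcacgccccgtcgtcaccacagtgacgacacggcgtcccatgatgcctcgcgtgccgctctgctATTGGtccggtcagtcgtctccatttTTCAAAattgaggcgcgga
Ccnb1: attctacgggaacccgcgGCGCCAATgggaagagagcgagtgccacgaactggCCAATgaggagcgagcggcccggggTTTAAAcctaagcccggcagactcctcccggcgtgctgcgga
Plk1: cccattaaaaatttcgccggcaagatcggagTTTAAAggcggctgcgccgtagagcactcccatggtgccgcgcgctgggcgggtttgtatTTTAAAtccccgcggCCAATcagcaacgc

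Among the D-type cyclins, which carry growth signals into G1, Ccnd1 alone was called, and it fell. Ccnd1 (chromosome 7, positions 144929931 to 144939831 of GRCm38) had 38.8, 17.8, 17.0, 31.6 and 42.0 CPM in mutants 1 to 5, against 73.1, 65.6, 52.7 and 65.7 CPM in controls. All mutants lay below all controls, mutants 2 and 3 lowest, and the log2 fold change was -1.13 ± 0.28 (SE; edgeR adjusted p = 0.0154). Such complete separation downward was seen in 14.7% of all tested genes and upward in 18.5%. Ccnd2 had 579.5, 195, 258, 426 and 545.5 CPM in mutants 1 to 5, against 553, 436, 482 and 449 CPM in controls (log2 fold change -0.26, SE 0.31, edgeR adjusted p = 0.530). Its level was below every control in mutants 2, 3 and 4 and highest in mutant 1. Ccnd3 had 31.4 to 40.7 CPM in mutants and 30.3 to 56.2 CPM in controls, and its log2 fold change of -0.15 did not pass (edgeR adjusted p = 0.565). On a scale per kilobase of the longest coding transcript, Ccnd2 was the most abundant D-type cyclin in both groups, at 63.3 ± 26.9 CPM per kilobase in the 5 mutants and 75.8 ± 8.27 in the 4 controls (SD). Ccnd3 and Ccnd1 stood at 18.1 ± 1.82 and 7.87 ± 3.11 CPM per kilobase in mutants, without overlap, and at 19.96 ± 5.46 and 17.2 ± 2.27 in controls, within their spread.

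The kinases of G1 differed. Cdk2, the partner of E- and A-type cyclins, had 17.0, 26.7, 25.9, 23.3 and 14.7 CPM in mutants 1 to 5, against 4.65, 5.27, 9.02 and 10.8 CPM in controls 1 to 4. The groups were apart and the log2 fold change was 1.52 ± 0.30 (SE; edgeR adjusted p = 0.00677). Cdk6 had 23, 16, 11, 9 and 21 counts in mutants 1 to 5 and 2, 3, 9 and 6 counts in controls, with a log2 fold change of 1.77 ± 0.46 (SE; edgeR adjusted p = 0.0163). At these counts its size is uncertain, and leaving out control 1 or control 2 ended the call (edgeR adjusted p up to 0.0522), while without any 1 mutant it fell under the filter. Cdk4, the main D-type cyclin kinase of beta cells, had 156, 157, 158, 109.7 and 170.2 CPM in mutants 1 to 5, against 126, 114, 147 and 109.8 CPM in controls. These ranges overlap, with mutant 4 at the level of the lowest control, and the log2 fold change of 0.27 did not pass (SE 0.16, edgeR adjusted p = 0.203). Per kilobase, Cdk4 stood at 73.2 ± 11.4 CPM in the 5 mutants and 60.6 ± 8.14 in the 4 controls (SD), and Cdk6 at 0.186 ± 0.0576 and 0.0529 ± 0.0294, so Cdk4 remained the more abundant by far.

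Ccne1, an activator of Cdk2 at the entry to S phase, had 8.60, 13.5, 12.4, 7.75 and 9.63 CPM in mutants 1 to 5, against 1.91, 1.46, 5.39 and 4.36 CPM in controls 1 to 4. Every mutant lay above every control, with a log2 fold change of 1.64 ± 0.40 (SE; edgeR adjusted p = 0.0133). Its paralog Ccne2 had 12.98 to 25.8 CPM in mutants and 16.2 to 35.3 CPM in controls and did not pass (log2 fold change -0.28, edgeR adjusted p = 0.466). Cdkn1b, which encodes the p27 inhibitor of Cdk2, had 7.02, 6.34, 7.74, 5.998 and 6.56 CPM in mutants 1 to 5, against 12.3, 48.4, 11.8 and 10.8 CPM in controls. All mutants were low and alike, and control 2 was far above the other controls. The log2 fold change was -1.62 ± 0.45 (SE; edgeR adjusted p = 0.0219), and -0.88 ± 0.18 without control 2 (SE; edgeR adjusted p = 0.0132). The call was lost without mutants 2 and 3 together (log2 fold change -1.69, edgeR adjusted p = 0.0517).

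The remaining G1 genes gave no call. Rb1, which encodes the retinoblastoma protein, had 6.07 to 10.4 CPM in mutants and 5.86 to 7.60 CPM in controls (log2 fold change 0.10, edgeR adjusted p = 0.734). E2f1 and E2f2, activating E2F factors, had 10 to 23 and 8 to 32 counts in mutants, against 14 to 24 and 4 to 16 counts in controls (log2 fold changes -0.11 and 0.71, edgeR adjusted p = 0.827 and 0.330). Cdkn2c, an inhibitor of Cdk4 and Cdk6, had 3 to 10 counts in mutants and 3 to 10 in controls. Cdkn2a, the p16 and Arf locus, had 1 count in mutant 1 and 0 in the other 8 libraries, so no difference was detectable at this depth.

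**Figure D3:**
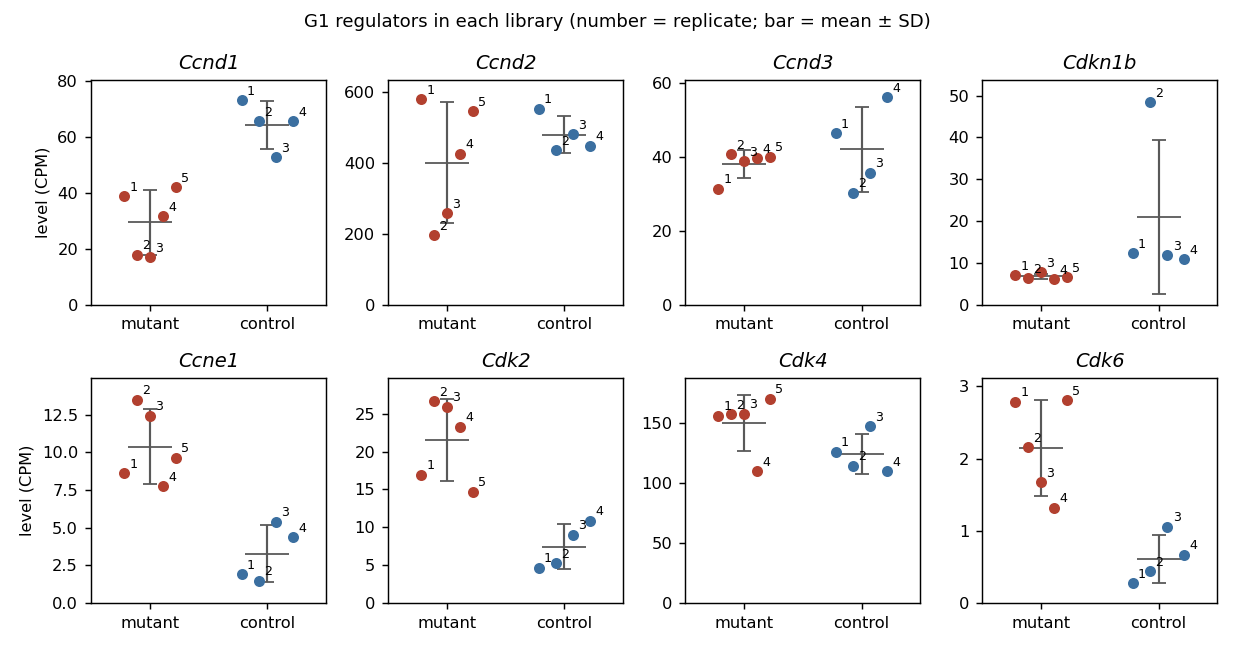
Levels (CPM, linear axes from 0) of 8 G1 regulators in each library, mutants left and controls right; numbers are replicates and bars are the mean ± SD. Ccnd1 and Cdkn1b lie lower in all 5 mutants, Ccne1, Cdk2 and Cdk6 higher, and Ccnd2 is at 195 and 258 CPM in mutants 2 and 3 only.

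S phase begins with the loading of the MCM helicase on origins, for which Cdc6 and Cdt1 are the loaders. Cdc6 (chromosome 11) had 4.24, 11.5, 12.4, 5.12 and 5.75 CPM in mutants 1 to 5, against 1.23, 1.90, 1.29 and 2.24 CPM in controls 1 to 4. The groups were apart, with mutants 2 and 3 at the top, and the log2 fold change was 2.21 ± 0.42 (SE; edgeR adjusted p = 0.00568). Cdt1 had 5.69, 8.22, 9.10, 3.37 and 5.08 CPM in mutants 1 to 5, against 1.09, 1.32, 3.28 and 4.47 CPM in controls, and missed the threshold (log2 fold change 1.29, SE 0.47, edgeR adjusted p = 0.0595). Mutant 4 lay inside the control range. Of the origin recognition complex, Orc6 had 12.1 to 18.4 CPM in mutants and 13.5 to 23.1 CPM in controls (log2 fold change -0.12, edgeR adjusted p = 0.667), and Orc1 had 3 to 8 counts in mutants and 6 to 8 in controls.

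With all 9 libraries, the 6 subunits of the MCM ring and their partner Mcm10 were called higher. Mcm4 was called in only 1 of the 9 fits that leave out 1 library, without control 3, and missed the threshold in DESeq2 (adjusted p = 0.0698), under relative log expression scaling (edgeR adjusted p = 0.0864) and with no filter (edgeR adjusted p = 0.0939). Mcm7 lost its call without mutant 3, control 1 or control 2 (edgeR adjusted p up to 0.0626). The widest fold changes of the ring were those of Mcm5 and Mcm7, at 1.82 and 1.49 on the log2 scale, and the narrowest was that of Mcm4, at 0.63 (edgeR adjusted p = 0.0125, 0.0202 and 0.0478). Mcm3 had 19.7, 32.9, 20.5, 17.9 and 16.1 CPM in mutants 1 to 5, against 5.47, 6.59, 10.1 and 9.95 CPM in controls 1 to 4 (log2 fold change 1.41, SE 0.28, edgeR adjusted p = 0.00634). Even mutant 5, the lowest, was above the highest control. Mcm2 had 13.1, 20.6, 21.2, 11.9 and 11.5 CPM in mutants 1 to 5, against 8.07, 4.98, 6.68 and 8.27 CPM in controls (log2 fold change 1.16, SE 0.27, edgeR adjusted p = 0.0118). Mcm6 had 42.7, 82.6, 68.6, 51.2 and 50.8 CPM in mutants 1 to 5, against 20.9, 14.9, 31.9 and 32.4 CPM in controls (log2 fold change 1.24, SE 0.28, edgeR adjusted p = 0.0105). Its E2F cores stand in the stretch printed above. Mcm7 overlapped between groups, since mutant 1 at 21.9 CPM was below control 3 at 24.5 CPM, while Mcm2, Mcm3, Mcm4, Mcm5, Mcm6 and Mcm10 did not overlap. Mcm10, which joins the helicase to polymerase alpha, had a log2 fold change of 1.96 (SE 0.46, edgeR adjusted p = 0.0123).

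Of the GINS subunits, which activate the helicase, Gins2 was called higher (log2 fold change 1.72, SE 0.51, edgeR adjusted p = 0.0288). Its level was 2.18, 10.51, 7.59, 6.14 and 5.62 CPM in mutants 1 to 5, against 0.957, 1.17, 3.40 and 2.12 CPM in controls, with mutant 1 inside the control range. Gins1 had 16 to 26 counts in mutants and 1 to 25 in controls and did not pass (log2 fold change 0.86, edgeR adjusted p = 0.329).

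Among the members that supply deoxynucleotides, Rrm1, Rrm2 and Tk1 were called higher, while the replication clamp was not. Rrm2, the regulated subunit of ribonucleotide reductase, had 23.97, 67.7, 56.6, 28.2 and 26.8 CPM in mutants 1 to 5, against 5.88, 4.83, 12.5 and 19.1 CPM in controls 1 to 4. Every mutant lay above every control (log2 fold change 1.93, SE 0.48, edgeR adjusted p = 0.0153). Rrm1, the large subunit, had a log2 fold change of 0.75 (SE 0.23, edgeR adjusted p = 0.0336), and Tk1, the cytosolic thymidine kinase, one of 2.46 (SE 0.65, edgeR adjusted p = 0.0181). Tyms, thymidylate synthase, had 19.5 to 37.5 CPM in mutants and 11.1 to 24 CPM in controls and did not pass (log2 fold change 0.73, edgeR adjusted p = 0.0757). Pcna, the sliding clamp and a common marker of proliferation, had 54.0, 66.3, 66.6, 57.8 and 53.7 CPM in mutants 1 to 5, against 54.1, 74.2, 61.1 and 54.5 CPM in controls. Its groups overlapped almost fully (log2 fold change -0.03, SE 0.14, edgeR adjusted p = 0.880).

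The clamp loader genes Rfc3 and Rfc4 had log2 fold changes of 0.60 and 1.18 and did not pass (edgeR adjusted p = 0.106 and 0.0836). Rfc4 was at 31.7 and 31.6 CPM in mutants 2 and 3, at 8.96 to 12.9 CPM in the other mutants and at 3.55 to 12.0 CPM in controls. Pola1, the catalytic subunit of polymerase alpha, had 5.09 to 10.51 CPM in mutants and 8.32 to 11.1 CPM in controls, the only tested S phase gene besides Orc6 and Pcna with a negative log2 fold change (-0.39, edgeR adjusted p = 0.208). Pole, the catalytic subunit of polymerase epsilon, had 8, 13, 12, 6 and 7 counts in mutants 1 to 5 and 1, 0, 2 and 3 counts in controls and was not tested after the filter. Uhrf1, which keeps DNA methylation through replication, had 1.45, 9.30, 9.25, 2.63 and 3.08 CPM in mutants 1 to 5, against 0, 0.878, 0.469 and 0.894 CPM in controls. Its log2 fold change was 3.15 (SE 0.82, edgeR adjusted p = 0.0168), from 12 to 69 counts in mutants and 0 to 8 counts in controls, so its size is uncertain.

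Most G2/M genes were highest in mutants 2 and 3. In 19 of 20 tested G2/M genes mutants 2 and 3 were the 2 highest of the 9 libraries, against 16 of 21 S phase genes, 2 of 12 G1 genes and 18.3% of all tested genes. Of the 23 G2/M genes, 22 were above the highest control in mutant 2 and 21 in mutant 3, against 14 in mutant 1, 7 in mutant 4 and 14 in mutant 5. These are 95.7%, 91.3%, 60.9%, 30.4% and 60.9% in mutants 2, 3, 1, 4 and 5, where the shares over all tested genes were 37.1%, 37.0%, 31.2%, 34.4% and 34.3%. Mutant 4 alone was thus near the share of all genes. The median difference from the control mean over these 23 genes was 3.02 and 2.67 on the log2 scale in mutants 2 and 3, and 0.56, 0.29 and 0.90 in mutants 1, 4 and 5. For the 23 S phase genes these medians were 1.79 and 1.59, and 0.83, 0.94 and 1.03. These counts were chosen after the values of the libraries were known.

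**Figure D4:**
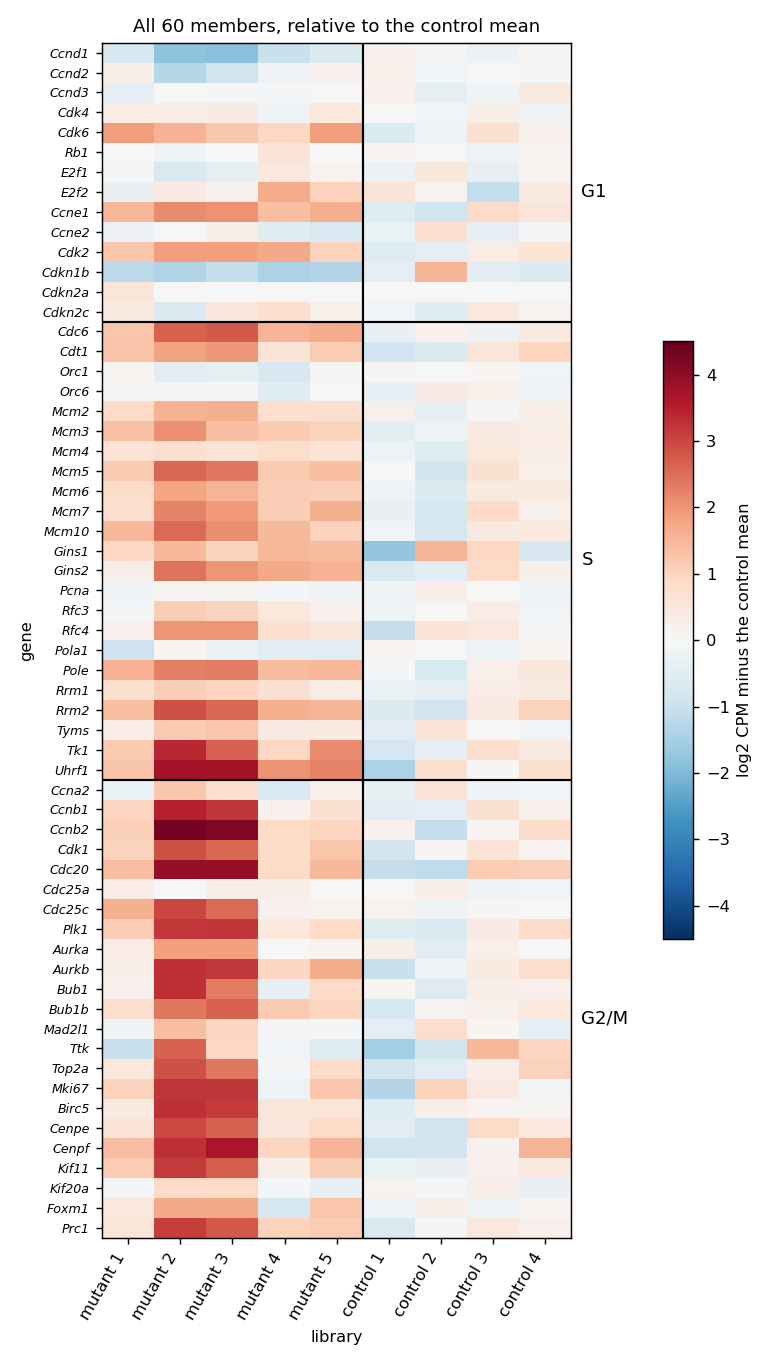
Log2 CPM minus the control mean for each of the 60 members (rows, by list) in each library (columns, mutants left of the line and controls right); red is above and blue below the control mean. Most of the G2/M block is dark red in mutants 2 and 3 alone, with medians of 3.02 and 2.67, and much of the S block is red in all 5 mutants, with Orc1, Orc6, Pcna and Pola1 near 0 or below.

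Cdk1, the mitotic kinase (chromosome 10, positions 69335146 to 69352912), had 7.14, 26.6, 21.5, 6.14 and 8.43 CPM in mutants 1 to 5, against 1.78, 3.66, 5.39 and 3.69 CPM in controls 1 to 4. All mutants lay above all controls, mutant 4 narrowly (log2 fold change 1.93, SE 0.53, edgeR adjusted p = 0.0215). Ccnb1 (chromosome 13, positions 100778739 to 100786486), the main mitotic cyclin, had 8.23, 48.3, 39.7, 4.68 and 6.69 CPM in mutants 1 to 5, against 2.87, 2.93, 6.68 and 4.69 CPM in controls (log2 fold change 2.31, SE 0.75, edgeR adjusted p = 0.0399). Mutant 4 was within the control range. Ccnb2 had 3.51, 35.3, 32.2, 3.07 and 3.21 CPM in mutants 1 to 5, against 1.78, 0.585, 1.64 and 2.91 CPM in controls (log2 fold change 3.13, SE 0.95, edgeR adjusted p = 0.0309). Ccna2, a cyclin of S and G2, had 5.09, 15.0, 10.8, 3.804 and 7.36 CPM in mutants 1 to 5, against 4.92, 10.1, 5.50 and 5.81 CPM in controls and did not pass (log2 fold change 0.35, edgeR adjusted p = 0.525).

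Among mitotic regulators, Plk1, a kinase of mitotic entry and spindle function, had 3.15, 14.2, 14.6, 1.90 and 2.68 CPM in mutants 1 to 5, against 0.820, 0.732, 1.76 and 2.57 CPM in controls (log2 fold change 2.27, SE 0.75, edgeR adjusted p = 0.0405). Mutant 4 lay within the controls and mutant 5 just above them. Aurkb, the chromosomal passenger kinase, its partner Birc5 and Cdc20, an activator of the anaphase-promoting complex, had log2 fold changes of 2.53, 2.24 and 2.58 (edgeR adjusted p = 0.0385, 0.0403 and 0.0443). Aurka, a centrosomal kinase, did not pass (log2 fold change 1.08, edgeR adjusted p = 0.103). Cdc25a, a phosphatase that activates cyclin-dependent kinases from G1 on, had 37.2 to 48.1 CPM in mutants and 33.3 to 47.1 CPM in controls (log2 fold change 0.17, edgeR adjusted p = 0.384). It was the 1 tested G2/M gene in which mutants 2 and 3 were not the highest. Its mitotic paralog Cdc25c had 10, 27, 17, 2 and 2 counts in mutants 1 to 5 and 1 to 2 counts in controls.

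The spindle checkpoint gene Bub1b had 1.70, 5.80, 7.13, 2.34 and 2.01 CPM in mutants 1 to 5, against 0.410, 1.02, 1.054 and 1.34 CPM in controls (log2 fold change 1.95, SE 0.57, edgeR adjusted p = 0.0260). The groups did not overlap. Bub1, Mad2l1 and Ttk, of the same checkpoint, gave no call: Bub1 had a log2 fold change of 2.07 (edgeR adjusted p = 0.0708), Mad2l1 one of 0.46 (edgeR adjusted p = 0.421), and Ttk had 1, 34, 8, 3 and 2 counts in mutants 1 to 5 and 0, 1, 16 and 11 counts in controls. Of the spindle motors and their partners, Prc1, which bundles microtubules at the midzone, had 5.21, 31.95, 25.2, 7.46 and 8.03 CPM in mutants 1 to 5, against 2.05, 3.37, 4.92 and 4.14 CPM in controls (log2 fold change 2.09, SE 0.59, edgeR adjusted p = 0.0240). Mutant 1 was just above the highest control. The kinesin Kif11 had 4.12, 17.4, 13.1, 2.19 and 4.15 CPM in mutants 1 to 5, against 1.37, 1.32, 1.99 and 2.46 CPM in controls (log2 fold change 2.17, SE 0.63, edgeR adjusted p = 0.0261), while Kif20a did not pass (log2 fold change 0.33, edgeR adjusted p = 0.429). The centromere proteins Cenpe and Cenpf had log2 fold changes of 1.93 and 2.50 that missed the threshold (edgeR adjusted p = 0.0636 and 0.0529).

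The proliferation marker Mki67 (chromosome 7) had 4.60, 21.6, 21.8, 1.76 and 5.35 CPM in mutants 1 to 5, against 0.684, 4.39, 2.93 and 1.90 CPM in controls 1 to 4. Mutant 4 lay inside the control range, and the log2 fold change of 2.15 missed the threshold (SE 0.79, edgeR adjusted p = 0.0593). Top2a, a topoisomerase of chromosome segregation, had 6.42, 34.4, 24.4, 4.39 and 8.43 CPM in mutants 1 to 5, against 2.46, 3.07, 5.62 and 9.61 CPM in controls (log2 fold change 1.57, edgeR adjusted p = 0.0922). Only mutants 2 and 3 were above control 4. Foxm1, a transcription factor of the mitotic programme, had 3, 9, 8, 0 and 6 counts in mutants 1 to 5 and 1, 2, 1 and 2 counts in controls, too few for the test.

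Mutants 2 and 3 were left out with their values known. Since they were the 2 highest libraries for 19 of 20 G2/M genes, a lower G2/M fold change without them follows from that choice, and the lists were not compared by a test. With mutants 1, 4 and 5 against the 4 controls, edgeR called 10.8% of all tested genes higher and 9.78% lower. It then called 3 of 21 S phase genes higher, a share near that of all genes, Cdc6, Mcm3 and Mcm6, with log2 fold changes of 1.53, 1.09 and 0.88 (edgeR adjusted p = 0.0178, 0.0214 and 0.0497), and Cdk2 higher and Ccnd1 lower in G1, at 1.22 and -0.83 (edgeR adjusted p = 0.0314 and 0.0166). In G2/M it called 0 of 19, with 2 at an unadjusted p under 0.05, against 4554 of 12571 genes in all. The log2 fold changes of the G2/M genes then ran from -0.32 (Ccna2) to 1.052 (Cenpf), and those of the S phase genes from -0.70 (Pola1) to 1.99 (Uhrf1). Median log2 fold changes in this fit were 0.55 for G2/M, 0.84 for S and 0.12 for G1 genes. Fewer mutants also leave less power, so a lost call does not show that a gene was level.

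**Figure D5:**
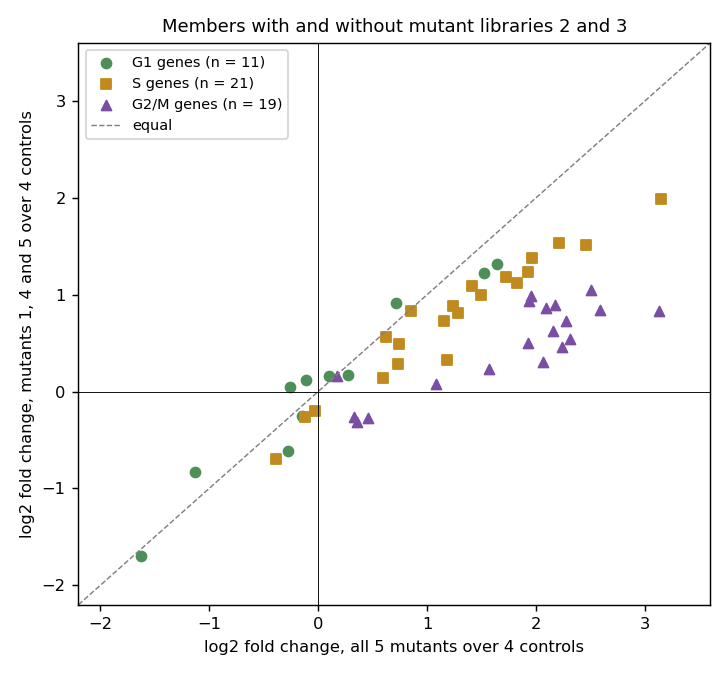
Log2 fold change of each tested member in all 5 mutants over 4 controls (x axis) and in mutants 1, 4 and 5 over the same controls (y axis), coloured by list, with the line of equal values dashed. G2/M genes (triangles) lie well under the line, with y values from -0.32 to 1.052, as the choice of the libraries left out makes them, and S genes (squares) lie nearer to it.

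The G2/M count also moved with single libraries. With all 9 libraries it was 10 in edgeR, 14 in DESeq2 and 3 in limma-voom with quality weights, which called 20.6%, 20.3% and 24.3% of all genes higher. In edgeR it was 3 without mutant 2, 0 without mutant 3, 0 without control 1 and 0 without control 2, where 15.2%, 12.9%, 13.3% and 15.8% of all genes were called higher. It was 2 without control 3 and 3 without control 4, against 17.7% and 16.5% of all genes. In the 3 fits with a count of 0, an unadjusted p under 0.05 was reached by 9 of 19, 11 of 21 and 11 of 21 tested G2/M genes. Of all genes, 4829 of 12282, 4835 of 12634 and 5476 of 12699 reached it. Of the 9 fits that leave out 1 library, Cdk1, Prc1 and Bub1b were called in 5, Kif11 in 4, Ccnb1, Ccnb2, Plk1, Birc5 and Cdc20 in 3 and Aurkb in 2. Each of these lost its call without control 1 and without control 2, and each but Aurkb, which was not tested there, without mutant 3. Their highest edgeR adjusted p ran from 0.0621 (Cdk1) to 0.109 (Cdc20), and every log2 fold change stayed above 0, from 1.504 (Cdk1) to 3.5 (Ccnb2). Mki67 was called without mutant 1 and without mutant 4 (lowest edgeR adjusted p = 0.0307), and Cdt1 without control 4 (edgeR adjusted p = 0.0368). Cdc6, Mcm2, Mcm3, Mcm5, Mcm6, Mcm10, Rrm2, Uhrf1, Cdk2, Ccne1, Ccnd1 and Cdkn1b were called in all 9 fits. Of the other called S phase genes, Tk1 lost its call without control 1 or control 2, and Gins2 and Rrm1 each in 5 of the 9 fits, those without mutant 2, mutant 3, control 1 and control 2 among them. The S phase count stayed between 8, without control 1, and 14, without mutant 1, where 13.3% and 22.2% of all genes were called higher.

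Markers of other cells were called in some lists and not in others. Over all tested genes 20.6% were called higher and 11.8% lower. The 6 endothelial, 8 macrophage and 2 lymphocyte markers tested gave 0 calls, and 2 of 7 stellate and fibroblast markers were called lower. Of the 17 acinar markers 16 were called higher, and their sum ran from 73730 to 196500 CPM in mutants and from 12220 to 20140 CPM in controls. None of them was at 0. By library the acinar sum was 73730, 196500, 180400, 160500 and 75690 CPM in mutants 1 to 5. Mutant 4 came near mutants 2 and 3 in this sum, but single markers differed. Cpa1 was alike, at 10700 CPM in mutant 4, against 11380 and 10130 CPM in mutants 2 and 3. Ptf1a was lower in mutant 4, at 235 against 559 and 491 CPM, and Cela1 higher, at 8797 against 1717 and 1963 CPM. Beta cell markers summed to 62060, 725, 12060, 44890 and 60320 CPM in mutants 1 to 5, against 108300 to 179800 CPM in controls, so mutants 2 and 3 were the lowest here. Of 11 tested, 3 were called lower. Ins1 and Ins2 were below every control in all mutants but were not called (edgeR adjusted p = 0.120 and 0.123). Mafa, at no more than 3 counts in all libraries together, marks no difference. Ductal markers had 2 of 7 called higher and 1 lower, with sums of 2156 to 5352 CPM in mutants and 1413 to 6352 CPM in controls. Spp1 led the control sums, at 714 to 5244 CPM, and was not called. Krt19 and Muc1 were higher (log2 fold changes 2.13 and 2.21, edgeR adjusted p = 0.00242 and 0.00435). Krt7 was lower (log2 fold change -1.34, edgeR adjusted p = 0.0409), and none of these 3 overlapped between groups. Markers of non-epithelial cells were low in mutant 2: endothelial 5.26, macrophage 10.8, stellate and fibroblast 2.43 and lymphocyte 1.21 CPM, each below the control range, whose lowest sums were 38.9, 36.6, 51.9 and 4.83 CPM. Mutant 1 went the other way, with macrophage, stellate and lymphocyte sums of 93.5, 168 and 15.3 CPM above the control range, whose highest sums were 63.2, 99.5 and 9.61 CPM. Single genes carried much of these mutant 1 sums. Pdgfra and Dcn, at 56.8 and 53.5 CPM, led the stellate sum, while Col1a2 and Lum, at 2.42 and 1.695 CPM, were below every control. Lyz2 led the macrophage sum at 33.4 CPM, while C1qa, at 12.96 CPM, was below every control. Ptprc, at 7.99 CPM, was the largest part of the lymphocyte sum. In mutant 3 the endothelial, macrophage, stellate and lymphocyte sums were 16.2, 24.1, 37.6 and 5.16 CPM. Macrophage and stellate sums were below the controls in mutants 4 and 5 too. The part of acinar and endocrine content in the rise of the S and G2/M genes was not tested. With the acinar score as a covariate edgeR called 0 of 53 members and 0 of all genes. At an unadjusted p under 0.05 there were 2 members, against 414 of 12402 genes in all. With the endocrine score it called 0 of 53 members, while 2.01% of all genes were called higher and 0.25% lower. At an unadjusted p under 0.05 there were then 7 members, against 2464 of 12402 genes in all. The group explains 53.8% of the variance of the endocrine score and 93.1% of that of the acinar score, so the acinar content and the genotype cannot be told apart in these libraries.

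Of 90 other cell cycle genes, 84 were tested, of which 25 were called higher and 7 lower (29.8% and 8.33%, against 20.6% and 11.8% of all genes), with a median log2 fold change of 0.55. The 4 of lowest p were all higher: Ccng1, a p53-induced cyclin (log2 fold change 1.63, SE 0.20, edgeR adjusted p = 0.00152), Ect2, an exchange factor of cytokinesis (2.57, SE 0.43, edgeR adjusted p = 0.00354), Tfdp2, an E2F dimer partner (1.35, SE 0.23, edgeR adjusted p = 0.00391), and Cdkn1a, which encodes the p21 inhibitor of cyclin-dependent kinases (0.97, SE 0.20, edgeR adjusted p = 0.00828). Ccng1 averaged 492 CPM in mutants and 159 CPM in controls, and Cdkn1a 363 and 186 CPM. Cdkn1a thus rose while Cdkn1b, of the same inhibitor family, fell. The 7 called lower in this list were Spc25, Fbxw7, Cdkn2d, Dut, Rrm2b, Lin52 and Orc3. Their log2 fold changes ran from -1.69 (Spc25) to -0.41 (Orc3), and Spc25, Fbxw7 and Dut were also lower without mutants 2 and 3. Among the clamp loader, GINS, polymerase alpha and primase genes of this list, Rfc5, Gins4, Pola2 and Prim2 were called higher. In the same complexes Rfc1, Rfc2, Gins3 and Prim1 were not called. Without mutants 2 and 3, 6 of 82 were called higher and 3 lower (7.32% and 3.66%, below the 10.8% and 9.78% of all genes), and Ccng1, Ect2, Tfdp2 and Cdkn1a passed with log2 fold changes of 1.51, 1.83, 0.93 and 0.92 (edgeR adjusted p = 0.00505, 0.00732, 0.00973 and 0.0314).

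In GENCODE M21, 20 of the 60 members have exons that overlap those of another gene, mostly on the opposite strand. Among called genes these are Ccnd1, Cdk6, Mcm7, Gins2, Tk1, Cdc20, Plk1 and Prc1. The sources used here do not say if strand was used in counting, so reads from overlapping partners cannot be told apart.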

How the data were processed

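The authors deposited 1 table of raw counts, in whole numbers and not normalized, for 9 libraries of islet RNA. Per the labels' protocols, the kits were a Zymo DirectZol MicroPrep for RNA and a low-input NEBNext Ultra II for libraries, and islet medium was RPMI with serum. The submitters' processing notes name Bowtie2, STAR, RSEM, HOMER, R 4.1.0, DESeq2 and other tools and the build mm10, without roles. The aligner, counter and annotation behind these counts are not given in the sources used here.

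Groups and replicate numbers came from the titles. No 2 libraries of a group agreed within sampling noise (lowest chi-square per degree of freedom 18.1). The whole table was fitted with edgeR 4.0.16 (R 4.3.3): filterByExpr, TMM scaling, quasi-likelihood test, two-sided, Benjamini-Hochberg adjustment over 12402 genes, threshold 0.05. Only the rows of the lists are printed. Log2 CPM used a prior count of 2, and a standard error is the unshrunken log2 fold change over the square root of F. Alternatives were the scalings, filters, covariates, left-out libraries, the replicate number as a block, DESeq2 1.42.0 and limma-voom (limma 3.58.1). The pipeline was tested on simulated data. The members, lists and the choice of libraries to leave out were made with earlier results of these data known. Named genes are the 5 members of lowest p in each list, a fixed set by role and the 4 of lowest p among the other cell cycle genes. Further members are named so that all are accounted for.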

Additional observations from a re-analysis of the deposited data

Results flagged for a closer look

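Among the members named by rule, 62 groups of libraries were examined for 1 library far from the rest of its group on the log2 CPM scale, and 4 were marked, where chance marks about 1 in 20. Cdkn1b was 5.61 in control 2 and 3.47 to 3.65 in the other controls. Ccnd3 was 4.98 in mutant 1 and 5.29 to 5.36 in the other mutants. Cdk4 was 6.78 in mutant 4 and 7.29 to 7.41 in the other mutants. Rb1 was 3.41 in mutant 4 and 2.66 to 2.88 in the other mutants. Of these genes Cdkn1b alone was called, and it was called without control 2 as well.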

How the results depend on the processing

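The numbers of genes called (edgeR: 3 G1 genes higher and 2 lower, 13 S phase genes and 10 G2/M genes higher) moved as follows. Without mutants 2 and 3 they were 1, 1, 3 and 0, against 10.8% of all genes higher and 9.78% lower. With the acinar or the endocrine score as a covariate each was 0. Of all genes, the acinar covariate left 0 called, with 414 at an unadjusted p under 0.05, and the endocrine one 2.01% higher and 0.25% lower. Replicate numbers did not pair the libraries (correlations of deviations 0.05, -0.02, 0.18 and -0.04, and 1 of 4 numbers correlated best with itself). The replicate block gave 2 G1 genes higher and 1 lower, and 10 S phase and 3 G2/M genes higher, with Cdkn1b at an edgeR adjusted p of 0.0922. Of all genes it called 13.4% higher and 6.24% lower. Limma-voom gave 3 G1 genes higher and 2 lower, and 16 S phase and 3 G2/M genes higher, against 24.3% of all genes higher and 18.5% lower. Leaving out 1 library gave 8 to 14 S phase and 0 to 14 G2/M genes, against 12.9% to 22.2% of all genes higher. Relative log expression scaling left 51.8% of all calls higher, against 63.6%, and DESeq2 49.6%.

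Of 53 tested members, 36 changed sign with the acinar covariate and 13 with the endocrine one, as did 5 of 51 without mutants 2 and 3, 3 in limma-voom and at most 1 under any other setting. For the genes named by rule or fixed set the values follow. With the acinar covariate, where none passed, log2 fold changes were -0.032 for Cdk2, 1.11 for Ccnd1, 1.94 for Ccnd2, -0.15 for Rb1, 0.39 for E2f1, -0.19 for Mcm10, -0.63 for Mcm5, -0.071 for Rrm2, -1.02 for Uhrf1, -1.54 for Cdk1, -2.51 for Prc1, -1.70 for Bub1b, -1.20 for Kif11, -3.88 for Ccnb2, -3.32 for Ccnb1, -2.52 for Mki67, -1.64 for Top2a, -1.38 for Ccna2 and -2.00 for Plk1. The endocrine covariate gave 0.56 for Ccnd2, 0.53 for E2f1, -0.40 for Top2a, -0.62 for Ccna2 and -0.13 for Ccnb1. Without mutants 2 and 3, Ccnd2 was 0.052, E2f1 0.12 and Ccna2 -0.32. Rb1 was -0.002 under relative log expression scaling and -0.003 in DESeq2, E2f1 0.045 in limma-voom, and Pcna 0.01 with the replicate block and 0.037 in limma-voom. Leaving out 1 library gave -0.37 to 0.022 for Ccnd3, -0.094 to 0.146 for Rb1, -0.34 to 0.014 for E2f1, -0.129 to 0.007 for Pcna and -0.012 to 0.541 for Ccna2. The cause was not tested. Genes under about 10 counts in a library are limited by depth.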
